A study of Caenorhabditis elegans with 9 samples.

Results

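The cuticlin and cuticlin-like genes of *C. elegans* were compared between 2 DBL-1/BMP pathway mutants and wild-type. All genes whose WormBase name is *cut-* or *cutl-* followed by a number were taken, together with *ram-5* and *dyf-7*, which gave 37 of the 46875 genes listed. They comprised 6 *cut-* genes, 29 *cutl-* genes and these 2 further genes. The RNA came from whole late L2 worms grown at 20 °C, with 3 biological replicates each of *sma-3(wk30)*, *sma-9(ok1628)* and wild-type (N2), at one labelled oxygen level. SMA-3 is a Smad and SMA-9 a Schnurri homolog, and loss of either makes the body small. Each mutant was represented by 1 allele in 1 strain, and no other allele or agent is labelled.

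Cuticlins are the part of the nematode cuticle that stays insoluble when collagens are extracted, because their chains are covalently crosslinked. Most of them are built around a zona pellucida (ZP) domain, an extracellular module through which proteins polymerize into filaments, and are held in the epidermal membrane until a furin-type protease releases them. They are best known from the alae, the lateral ridges above the seam cells, which form in L1, dauer and adult worms but not in L2. *cut-2* is a different kind of protein, a short-repeat cuticlin without a ZP domain that serves as a substrate for dityrosine crosslinks. The family name thus covers proteins of more than one type.

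The libraries held 58889275 to 82735807 reads on genes, so that 3 reads corresponded to 0.035 to 0.0503 CPM, the usual depth-scaled read count, here on library sizes normalized by the authors. The *sma-3* transcript was at 12.6, 13.3 and 14.2 CPM in *sma-3* libraries, 38.3, 37.2 and 36.6 CPM in libraries labelled *sma-9* and 26.5, 21.4 and 22.4 CPM in wild-type libraries. The *sma-9* transcript was at 173, 213 and 219 CPM in the libraries labelled *sma-9*, above the 87.6, 89.4 and 119.1 CPM in wild-type libraries. The transcript level thus did not check that label, and these libraries are called "labelled *sma-9*" throughout. Epidermal marker transcripts were present in every library: *dpy-7*, *elt-3*, *lin-26* and *rol-6* together reached 772 to 954 CPM in *sma-3*, 1058 to 1631 CPM in libraries labelled *sma-9* and 1430 to 2015 CPM in wild-type. *rol-6* and *dpy-7* weigh most in these sums, with means of 577 and 191 CPM in *sma-3* and 1072 and 454 CPM in wild-type. *elt-3* (means 48.3 and 43.3 CPM) and *lin-26* (73.3 and 83.8 CPM) overlapped between *sma-3* and wild-type.

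The 37 genes fell into 2 classes by level. Of these, 30 had at least 1.24 CPM in each of the 9 libraries and were tested, as part of 13105 tested genes that had at least 1 CPM in at least 3 libraries. The other 7 genes stayed below 1 CPM in each library and were not tested. No gene of the family therefore entered the test through a single genotype.

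Of the cuticlin genes known from alae, *cut-1*, *cut-3* and *cut-5* were among the 7 untested genes, while *cut-6* was tested. *cut-1*, known from the dauer alae, had 6, 2 and 2 reads in *sma-3* libraries, 3, 4 and 3 reads in libraries labelled *sma-9* and 2, 10 and 0 reads in wild-type libraries. *cut-3*, needed for the alae of L1 worms, had 16, 10 and 21 reads in *sma-3*, 24, 2 and 17 reads in libraries labelled *sma-9* and 21, 10 and 11 reads in wild-type. These counts overlapped between the genotypes, and differences were not detectable at this depth. *cut-5*, which acts in L1 and dauer alae, was the highest of the untested genes, at 0.917, 0.772 and 0.644 CPM in *sma-3*, 0.649, 0.548 and 0.641 CPM in libraries labelled *sma-9* and 0.359, 0.663 and 0.485 CPM in wild-type. *cutl-1*, *cutl-2*, *cutl-7* and *cutl-13* had between 2 and 26 reads in any library.

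Per kilobase of exon, *cut-2* stood far above the rest. It averaged 1620 CPM per kb over the 9 libraries, against 16.9 for *cutl-15*, 15.4 for *cutl-10*, 12.0 for *cutl-26*, 10.5 for *cutl-20* and 10.0 for *cutl-28*. The lowest tested gene, *cutl-27*, averaged 0.992 CPM per kb. *cut-2* alone accounted for 74.5% to 90.9% of the summed CPM of all 37 genes in a library. The sum without *cut-2* was 270 to 280 CPM in *sma-3*, 229 to 271 CPM in libraries labelled *sma-9* and 249 to 275 CPM in wild-type, and these ranges overlapped.

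**Figure D1:**
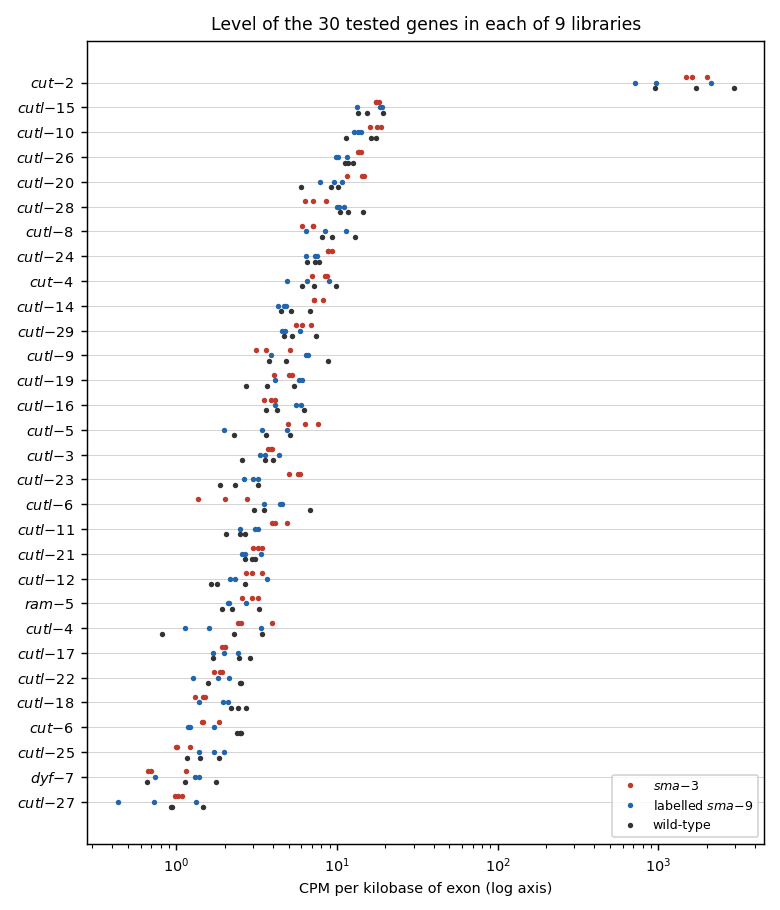
CPM per kilobase of exon (horizontal, log axis) of the 30 tested genes, ordered by their mean, with 1 point per library: *sma-3* red, labelled *sma-9* blue, wild-type black. *cut-2* lies between 721 and 2944 CPM per kb, while no library of any other gene exceeds 19.2 CPM per kb.

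To ask whether loss of SMA-3 changes the family, *sma-3* was set against wild-type. At an adjusted p of at most 0.05 (limma, Benjamini-Hochberg over all tested genes), 4 of the 30 genes fell and 4 rose. Those that fell were *cut-6*, *cutl-18*, *cutl-28* and *cutl-6*, and those that rose were *cutl-23*, *cutl-11*, *cutl-20* and *cutl-24*. The 13.3% of the family in each direction compares with 12.2% of all tested genes lower and 9.36% higher (1596 and 1227 genes), so the share of changed genes was near the background. The median log2 fold change was 0.12 for the 30 genes and -0.01 for all tested genes. With libraries scaled to equal totals instead, 3 of the 30 were lower and 6 higher, and the split of all tested genes moved to 880 lower and 1572 higher.

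*cut-6* (WBGene00000853, III:10911460-10916665, plus strand; all positions are on WBcel235) encodes a ZP-domain cuticlin needed for dauer alae and for a normal body shape. It had 3.42, 2.73 and 2.67 CPM in *sma-3* libraries, 3.20, 2.19 and 2.25 CPM in libraries labelled *sma-9* and 4.43, 4.65 and 4.68 CPM in wild-type libraries. The 3 wild-type libraries lay close together and above all 6 mutant libraries. *cut-6* fell by 0.51 on the log2(CPM + 1) scale in *sma-3* (SE 0.13, adjusted p = 0.0232, limma), a ratio of mean CPM of 0.641. The call was lost without *sma-3* replicate 2, *sma-3* replicate 3 or wild-type replicate 2, with adjusted p-values up to 0.0904 over all alternatives.

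The other genes that fell in *sma-3* are named as cuticlin-like. *cutl-28* (WBGene00018256, IV:684497-688340, plus strand) had 19.7, 16.4 and 14.4 CPM in *sma-3*, 25.3, 22.9 and 23.7 CPM in libraries labelled *sma-9* and 24.1, 27.1 and 33.5 CPM in wild-type. All *sma-3* libraries lay below every other library. Against wild-type it fell by 0.71 on the log2 scale in *sma-3* (SE 0.14, adjusted p = 0.0072, limma), a ratio of mean CPM of 0.596, and this call held under each of the 19 alternatives.

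*cutl-18* (WBGene00009830, V:11313362-11316901, minus strand) had 3.68, 3.82 and 3.31 CPM in *sma-3*, 5.28, 3.50 and 4.89 CPM in libraries labelled *sma-9* and 6.86, 6.11 and 5.51 CPM in wild-type. The *sma-3* and wild-type libraries did not overlap, and it fell by 0.63 on the log2 scale in *sma-3* (SE 0.14, adjusted p = 0.0124, limma), a ratio of mean CPM of 0.585. Without *sma-3* replicate 3 the call was lost (adjusted p = 0.0559). The gene spans of *cutl-18* and T03F7.7, on opposite strands, overlap by 84 bp, with an overlap of exons within that stretch. T03F7.7 rose by 1.01 on the log2 scale in *sma-3* (adjusted p = 0.0152, limma). The strand setting of the counting was not given, so the separation of the reads of both genes is uncertain.

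*cutl-6* (WBGene00012165, I:7065252-7068129, plus strand) had 3.78, 2.73 and 1.86 CPM in *sma-3*, 4.80, 6.20 and 6.08 CPM in libraries labelled *sma-9* and 4.83, 4.17 and 9.27 CPM in wild-type. The *sma-3* libraries were the 3 lowest of the 9, but wild-type replicate 3 lay far above the other wild-type libraries. *cutl-6* fell by 0.87 on the log2 scale in *sma-3* (SE 0.26, adjusted p = 0.0451, limma), a ratio of mean CPM of 0.458. This call was lost under 12 of 18 alternatives. It shares 14 bp with *nuo-6*, a gene of mitochondrial complex I on the opposite strand at 153 to 186 CPM over the 9 libraries.

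Among the genes that rose, *cutl-23* (WBGene00021343, III:5770185-5774703, plus strand) changed most. It had 12.3, 14.0 and 14.4 CPM in *sma-3*, 7.29, 6.42 and 7.83 CPM in libraries labelled *sma-9* and 7.84, 5.67 and 4.59 CPM in wild-type. All *sma-3* libraries lay above all other libraries, with a ratio of mean CPM over wild-type of 2.25. The log2 fold change over wild-type was 1.08 (SE 0.16, adjusted p = 0.0023, limma), and the call held under each of the 19 alternatives.

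*cutl-11* (WBGene00011443, X:11648188-11650851, minus strand) rose with a log2 fold change of 0.69 (SE 0.12, adjusted p = 0.0056, limma), a ratio of mean CPM of 1.80. It had 5.47, 5.27 and 6.49 CPM in *sma-3*, 3.34, 4.28 and 4.12 CPM in libraries labelled *sma-9* and 3.56, 2.72 and 3.30 CPM in wild-type. The *sma-3* libraries were the 3 highest, and the call held under each of the 18 alternatives that gave a value.

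*cutl-20* (WBGene00018787, I:963692-969457, minus strand) had 14.8, 18.4 and 18.9 CPM in *sma-3*, 13.8, 9.99 and 12.4 CPM in libraries labelled *sma-9* and 11.7, 13.0 and 7.67 CPM in wild-type. *cutl-24* (WBGene00021396, IV:165077-169980, plus strand) had 17.8, 17.9 and 18.9 CPM in *sma-3*, 14.8, 15.1 and 12.9 CPM in libraries labelled *sma-9* and 14.8, 13.2 and 15.7 CPM in wild-type. In both genes the 3 *sma-3* libraries lay above the others. The log2 fold changes over wild-type were 0.66 for *cutl-20* (SE 0.19, adjusted p = 0.0341) and 0.31 for *cutl-24* (SE 0.09, adjusted p = 0.0436, both limma). The ratio of mean CPM was 1.61 for *cutl-20* and 1.25 for *cutl-24*. Of 19 alternatives, 9 lost the call of *cutl-20* and 11 that of *cutl-24*. *cutl-20* overlaps *shc-1*, which encodes an Shc adaptor protein, by 370 bp on the same strand. *cutl-23* overlaps *rev-3* by 25 bp and *cutl-11* overlaps T04F8.8 by 9 bp, both on opposite strands. T04F8.8 was at 58.9 to 82.3 CPM in *sma-3*, 53.1 to 88.5 CPM in libraries labelled *sma-9* and 27.4 to 59.0 CPM in wild-type. Its log2 fold change in *sma-3* over wild-type was 0.66 (adjusted p = 0.131, limma), and that of *rev-3* was -0.17. As for *cutl-18*, the separation of the reads of *cutl-11* and T04F8.8 is uncertain.

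**Figure D2:**
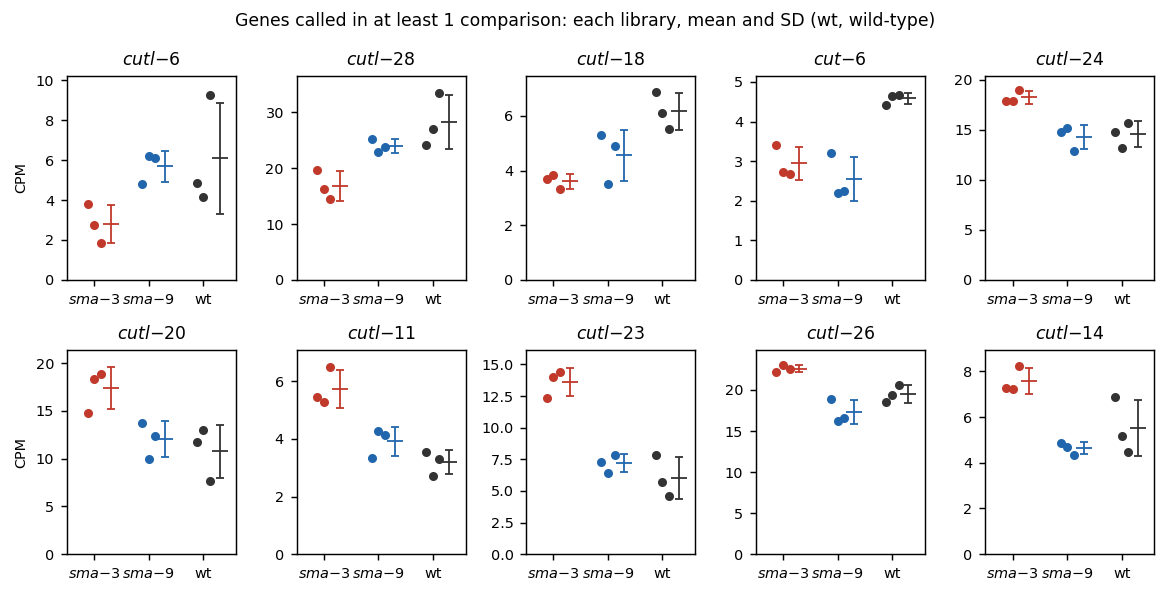
CPM (vertical, from 0) of the 10 genes called in at least 1 comparison, with 1 point per library and the mean ± SD of 3 libraries for *sma-3* (red), labelled *sma-9* (blue) and wild-type (black). For *cut-6* all 6 mutant points (2.19 to 3.42 CPM) lie below the wild-type points (4.43 to 4.68 CPM), while for *cutl-23* the *sma-3* points alone are apart (12.3 to 14.4 CPM).

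The remaining 22 tested genes did not pass the test in *sma-3*. An unadjusted p under 0.05 (limma) was found for 13 of the 30, and these 13 include the 8 called genes. The share of all tested genes under that limit is not given here, so the 13 are not read as an excess. The abundant *cut-2* (WBGene00009983, V:13414949-13416064, plus strand) had 1388, 1865 and 1507 CPM in *sma-3*, 1985, 668 and 891 CPM in libraries labelled *sma-9* and 1597, 2729 and 889 CPM in wild-type. Replicates differed up to 3.07-fold within wild-type, and the 95% interval of its log2 fold change in *sma-3* over wild-type ran from -1.01 to 1.01. *cut-4*, a ZP-domain cuticlin, had 12.5, 15.5 and 15.0 CPM in *sma-3*, 16.1, 8.80 and 11.7 CPM in libraries labelled *sma-9* and 12.9, 17.7 and 10.9 CPM in wild-type. Changes of *cut-2* as large as 2-fold in either direction were thus within the interval.

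The 2 genes outside the *cut-* and *cutl-* names have roles beyond the body cuticle. *ram-5*, needed for the shape of the sensory rays of the male tail, had 5.52, 6.93 and 6.31 CPM in *sma-3*, 5.83, 4.49 and 4.52 CPM in libraries labelled *sma-9* and 4.76, 6.95 and 4.14 CPM in wild-type. *dyf-7*, a ZP protein that anchors the dendrite tips of sensory neurons, had 2.20, 1.34 and 1.28 CPM in *sma-3*, 1.42, 2.67 and 2.505 CPM in libraries labelled *sma-9* and 1.26, 2.18 and 3.41 CPM in wild-type. Both overlapped between the genotypes, with intervals of the log2 fold change in *sma-3* of -0.15 to 0.61 for *ram-5* and -0.88 to 0.28 for *dyf-7*.

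Of the other highly expressed family members, *cutl-15* and *cutl-10* were not called in any comparison. *cutl-15* had 25.9, 27.0 and 25.9 CPM in *sma-3*, 28.2, 19.8 and 27.5 CPM in libraries labelled *sma-9* and 20.1, 28.5 and 22.95 CPM in wild-type. *cutl-10* had 21.1, 23.4 and 24.9 CPM in *sma-3*, 17.8, 18.5 and 16.8 CPM in libraries labelled *sma-9* and 23.002, 14.9 and 21.3 CPM in wild-type. The genotypes overlapped in both genes, apart from *cutl-10* between the mutants.

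**Figure D3:**
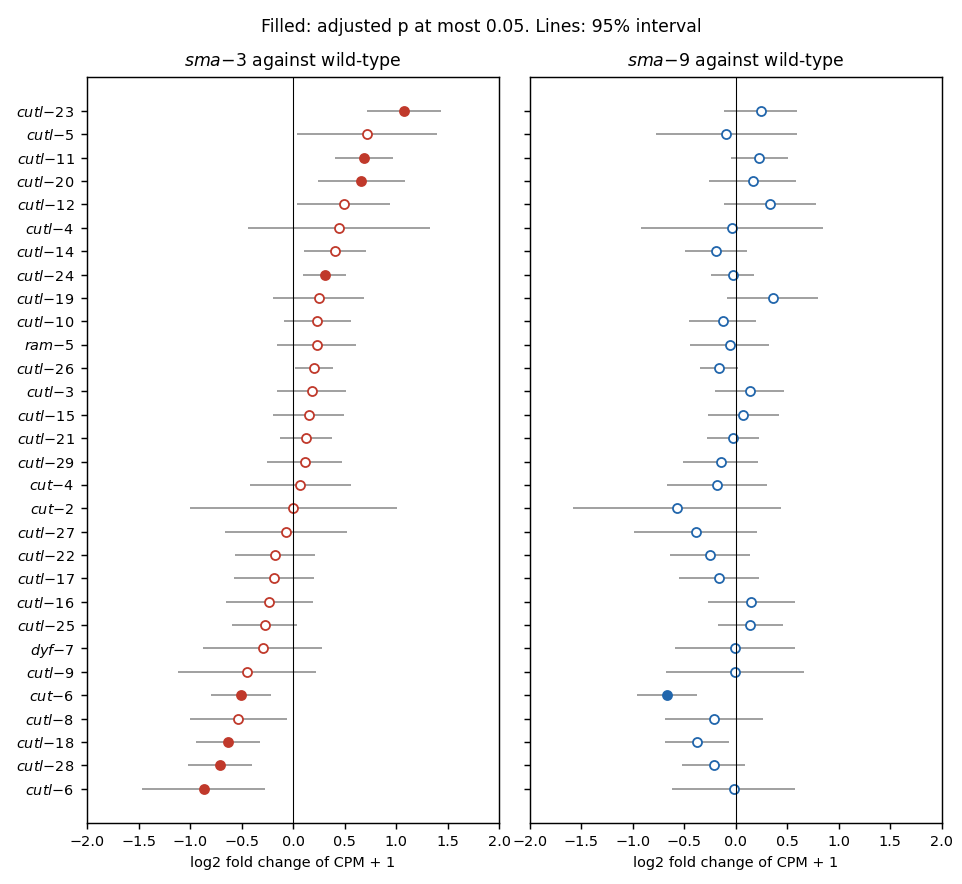
Log2 fold change of CPM + 1 over wild-type (horizontal) with its 95% interval for the 30 tested genes in *sma-3* (left) and labelled *sma-9* (right), ordered by the value in *sma-3*; filled points have an adjusted p of at most 0.05. In *sma-3* the values run from -0.87 (*cutl-6*) to 1.08 (*cutl-23*) with 8 filled points, and in labelled *sma-9* from -0.67 (*cut-6*) to 0.36 (*cutl-19*) with 1.

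The same question was asked of SMA-9. In libraries labelled *sma-9* against wild-type, *cut-6* alone of the 30 genes passed the test. That is 3.33% of the family lower, against 3.85% of all tested genes, and 0 higher, against 3.02% (505 and 396 genes). At an unadjusted p under 0.05, 2 of the 30 genes were found, and limma voom on the recovered reads also called 1. The median log2 fold change was -0.05 for the 30 genes and 0.00 for all tested genes. Scaling to equal totals shifted the median of all genes by 0.11 in this comparison and kept the 1 call.

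*cut-6* fell by 0.67 on the log2 scale in libraries labelled *sma-9* (SE 0.13, adjusted p = 0.0149, limma), a ratio of mean CPM over wild-type of 0.555. The call was lost without replicate 2 or replicate 3 of the libraries labelled *sma-9*, with adjusted p-values from 0.0065 to 0.0674 over all alternatives. Both mutants were compared with the same 3 wild-type libraries, so the 2 results for *cut-6* are not independent. Between the mutants its log2 difference (*sma-3* over labelled *sma-9*) was 0.16, with an interval of -0.13 to 0.45.

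A direct comparison tested which genes differed between the mutants. In *sma-3* over labelled *sma-9*, *cutl-28* was lower and 5 genes were higher, namely *cutl-23*, *cutl-11*, *cutl-24*, *cutl-14* and *cutl-26*. The 3.33% lower and 16.7% higher compare with 9.1% lower and 8.56% higher among all tested genes (1193 and 1122 genes). The median log2 difference was 0.16 for the 30 genes and -0.02 for all tested genes. Without *sma-3* replicate 2, *sma-3* replicate 3 or labelled *sma-9* replicate 3, 1 gene was called, and without labelled *sma-9* replicate 2 it was 2 genes.

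Of the 6 called genes *cutl-23* differed most, with a log2 difference of 0.84 (adjusted p = 0.0081), followed by *cutl-14* at 0.60 (adjusted p = 0.0153, both limma). *cutl-14* (WBGene00015231, I:10628743-10631674, plus strand) had 7.27, 7.21 and 8.23 CPM in *sma-3*, 4.86, 4.71 and 4.35 CPM in libraries labelled *sma-9* and 6.86, 5.18 and 4.49 CPM in wild-type. The mutants did not overlap (ratio of mean CPM 1.63), and the wild-type libraries overlapped those labelled *sma-9* but lay below those of *sma-3*. *cutl-26* (WBGene00021950, IV:698699-707735, minus strand) had 22.2, 23.1 and 22.6 CPM in *sma-3*, 18.9, 16.3 and 16.6 CPM in libraries labelled *sma-9* and 18.5, 19.4 and 20.6 CPM in wild-type. Its log2 difference between the mutants was 0.37 (adjusted p = 0.0150, limma), a ratio of mean CPM of 1.31, while over wild-type neither mutant passed the test.

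*cutl-28* and *cutl-26* are near neighbors on chromosome IV, 10.4 kb apart on opposite strands with 1 coding gene between them, and differed between the mutants in opposite directions. *cutl-28* had a log2 difference of -0.49 in *sma-3* over labelled *sma-9* (adjusted p = 0.0365, limma). *cut-2* and *cutl-1* are 8.83 kb apart on chromosome V, at very different levels. All other neighboring members on a chromosome were at least 182 kb apart, and the 37 genes were spread over the 6 chromosomes with 4 to 9 genes on each.

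Replicates of one genotype differed widely in part of the family. The difference between the highest and lowest replicate on the log2 scale had a median over the 30 genes of 0.24 in *sma-3*, 0.43 in libraries labelled *sma-9* and 0.59 in wild-type. Over all tested genes the median was 0.16 in *sma-3*, 0.26 in libraries labelled *sma-9* and 0.30 in wild-type. Part of the family varied together. *cut-2*, *cutl-4*, *cutl-5* and *cut-4* were highest in replicate 1 and lowest in replicate 2 of the libraries labelled *sma-9*, and highest in replicate 2 and lowest in replicate 3 of wild-type. *cutl-6*, *cutl-9*, *cutl-16* and *dyf-7* were highest in wild-type replicate 3 and lowest in replicate 1 of the libraries labelled *sma-9*. These genes were chosen after their values were seen, and are described without a test.

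*cutl-9* shows the second pattern, with 9.28, 6.61 and 5.70 CPM in *sma-3*, 7.01, 11.6 and 11.9 CPM in libraries labelled *sma-9* and 8.79, 6.89 and 16.1 CPM in wild-type. *cutl-4* shows the first, with 3.68, 5.97 and 3.84 CPM in *sma-3*, 5.15, 1.72 and 2.45 CPM in libraries labelled *sma-9* and 3.47, 5.24 and 1.24 CPM in wild-type. The library names carry a number, which was 14 to 16 for *sma-3*, 7, 8 and 10 for *sma-9* and 6, 7 and 9 for wild-type. Over wild-type and labelled *sma-9*, the libraries numbered 8 to 10 did not overlap those numbered 6 and 7 in 8 of the 30 genes that were lower (background 16.5%) and 6 that were higher (background 14.6%). What the numbers stand for was not given. The *sma-3* numbers coincide with the genotype, so the 2 cannot be told apart.

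Within these numbers *cut-6* was lower in libraries labelled *sma-9* in both sets. At numbers 6 and 7 it averaged 3.20 CPM in the 1 library labelled *sma-9* and 4.54 CPM in 2 wild-type libraries. At numbers 8 to 10 it averaged 2.22 CPM in 2 libraries labelled *sma-9* and 4.68 CPM in the 1 wild-type library. *cut-2* at numbers 6 and 7 was at 1985 CPM in labelled *sma-9* and 2163 CPM in wild-type, and at numbers 8 to 10 at 780 CPM in labelled *sma-9* and 889 CPM in wild-type. Its levels thus differed more between the numbers than between the genotypes.

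**Figure D4:**
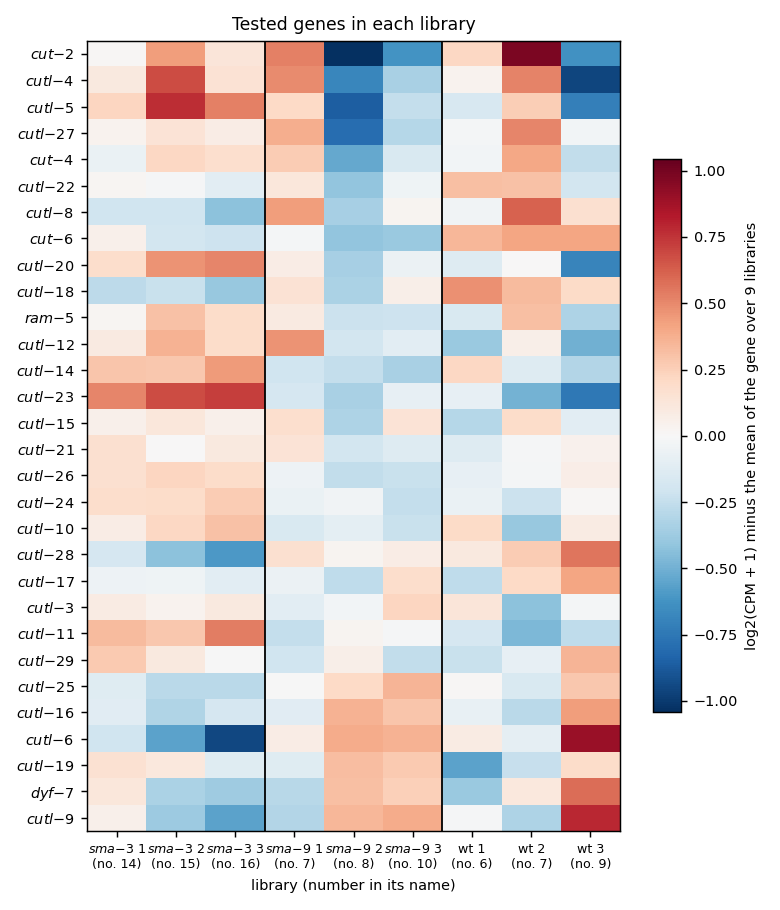
Log2(CPM + 1) of the 30 tested genes (rows) in each of the 9 libraries (columns, with the number in the library name), minus the mean of the gene over the 9 libraries; red is above and blue below the mean. *cut-2* and *cutl-5* are blue where *dyf-7* and *cutl-9* are red in replicates 2 and 3 labelled *sma-9* (numbers 8 and 10) and in wild-type replicate 3 (number 9).

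The ZP proteins outside the family and 4 related lists were set beside it, to be read against the shares and median of all tested genes. In *sma-3* against wild-type these were 12.2% lower, 9.36% higher and -0.01. For labelled *sma-9* against wild-type they were 3.85%, 3.02% and 0.00, and for *sma-3* over labelled *sma-9* 9.1%, 8.56% and -0.02. The same shares apply to the tissue markers below. NOAH-1, NOAH-2, FBN-1 and LET-653 are ZP-domain proteins of the precuticle, the transient apical matrix that is laid down before each new cuticle. In *sma-3* against wild-type, *noah-1* and *noah-2* fell and *fbn-1* and *let-653* did not pass, with a median log2 fold change of -0.92 for the 4 genes. Without *sma-3* replicate 2 or *sma-3* replicate 3, 1 of the 4 passed. *noah-1* had 782, 537 and 535 CPM in *sma-3*, 809, 1385 and 1147 CPM in libraries labelled *sma-9* and 1135, 1047 and 1867 CPM in wild-type. Its log2 fold change in *sma-3* over wild-type was -1.10 (SE 0.26, adjusted p = 0.0186, limma), and that of *noah-2* was -1.09 (SE 0.22, adjusted p = 0.0096, limma). In libraries labelled *sma-9* against wild-type, none of the 4 passed with limma (0 at an unadjusted p under 0.05, median -0.13).

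Partners of these ZP proteins in the apical matrix were counted next. Of *lpr-1*, *lpr-3*, *sym-1*, *egg-6*, *let-4*, *dex-1* and *qua-1*, 6 of 7 fell in *sma-3* (all but *dex-1*), with a median log2 fold change of -0.93. The calls of *egg-6* and *let-4* were lost without *sma-3* replicate 2 or *sma-3* replicate 3, and that of *let-4* under 11 of 19 alternatives. *qua-1*, a hedgehog-related gene needed for molting, fell most, with 438, 368 and 320 CPM in *sma-3*, 986, 689 and 663 CPM in libraries labelled *sma-9* and 926, 1215 and 1101 CPM in wild-type. Its log2 fold change over wild-type was -1.53 (SE 0.18, adjusted p = 0.0009, limma). The lipocalin genes *lpr-3* and *lpr-1* had log2 fold changes of -1.10 and -0.93 in *sma-3*, and *sym-1*, which encodes a leucine-rich repeat protein, -1.06. None of the 7 passed with limma in libraries labelled *sma-9* against wild-type (1 at an unadjusted p under 0.05, median -0.29). In the direct comparison 4 of the 7 were lower in *sma-3*, and 1 without *sma-3* replicate 2 or 3 or without replicate 2 or 3 of the libraries labelled *sma-9*.

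A list of 7 genes for the processing and crosslinking of cuticle proteins, not all of which encode enzymes, mostly rose in *sma-3*. Of *bli-4*, *kpc-1*, *bli-3*, *mlt-7*, *skpo-1*, *tsp-15* and *doxa-1*, 5 of 7 passed as higher (all but *kpc-1* and *bli-3*), with a median log2 fold change of 0.62. Without *sma-3* replicate 2 or *sma-3* replicate 3, 3 of the 7 passed. The heme peroxidase gene *mlt-7* had 172, 207 and 234.7 CPM in *sma-3*, 88.3 to 107 CPM in libraries labelled *sma-9* and 99.3, 78.3 and 60.2 CPM in wild-type, a log2 fold change over wild-type of 1.37 (SE 0.18, adjusted p = 0.0013, limma). DOXA-1 and the tetraspanin TSP-15 form a complex with the dual oxidase BLI-3, which makes the peroxide for dityrosine crosslinks. *doxa-1* had a log2 fold change of 1.04 and *tsp-15* of 0.69, while *bli-3* itself had 73.2, 75.0 and 75.0 CPM in *sma-3* and 63.7, 67.9 and 76.5 CPM in wild-type. None of the 7 passed with limma in libraries labelled *sma-9* against wild-type (0 at an unadjusted p under 0.05, median 0.10), and 4 were higher in *sma-3* in the direct comparison.

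**Figure D5:**
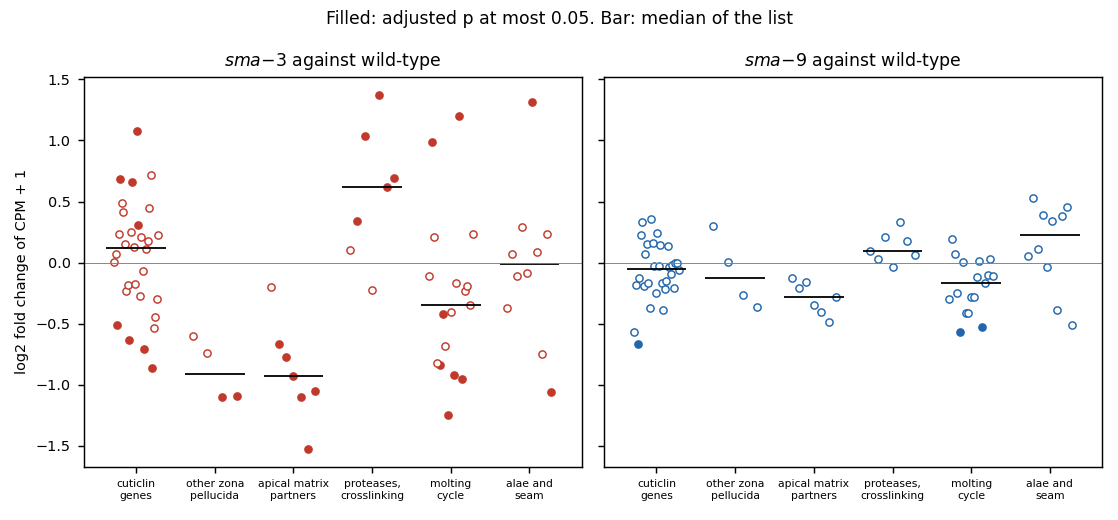
Log2 fold change of CPM + 1 over wild-type (vertical) of each tested gene in the family and 5 other lists, in *sma-3* (left) and labelled *sma-9* (right); filled points have an adjusted p of at most 0.05 and bars are list medians. In *sma-3* the bars lie at 0.12 for the cuticlin genes, -0.92 for other ZP genes, -0.93 for matrix partners and 0.62 for the protease and crosslinking list.

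Genes of the molting cycle changed in both directions in *sma-3*. Of 17 such genes tested, 5 fell (*mlt-9*, *mlt-11*, *nas-37*, *lrp-1* and *lin-42*) and 2 rose (*nas-36* and *bli-5*), with a median log2 fold change of -0.35. Without *sma-3* replicate 2 or *sma-3* replicate 3, 3 were lower and 0 higher, and without replicate 1 of the libraries labelled *sma-9* 8 were lower. *mlt-11*, a protease inhibitor gene, had a log2 fold change of -1.25 and *nas-36*, an astacin protease gene of cuticle shedding, of 1.20. The summed level of the 17 genes was 2517 to 3152 CPM in *sma-3*, 3549 to 3658 CPM in libraries labelled *sma-9* and 3929 to 5241 CPM in wild-type, and the 3 ranges did not overlap. Abundant genes weigh most in this sum, such as *mlt-11* (mean 474 CPM in *sma-3*, 1144 CPM in wild-type) and *lin-42* (363 and 654 CPM). Of the 13105 single tested genes, 5428 did not overlap between *sma-3* and wild-type, and 2903 between labelled *sma-9* and wild-type. In libraries labelled *sma-9*, *nas-37* and *lin-42* fell against wild-type and the median was -0.17; both calls were lost without wild-type replicate 2, *sma-3* replicate 2, or replicate 2 or 3 labelled *sma-9*. The part that a difference in molting stage has in the values of the cuticlin genes was not tested.

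Alae and seam cell genes showed no common direction in *sma-3*. Of 10 genes, the hedgehog-related *wrt-2* fell (log2 fold change -1.06) and *grd-10* rose (1.32), with a median of -0.01. None of the 10 passed with limma in libraries labelled *sma-9* against wild-type (2 at an unadjusted p under 0.05, median 0.23). Among markers of epidermis, *dpy-7*, a cuticle collagen gene, fell in *sma-3* (log2 fold change -1.26) and *elt-3*, *lin-26* and *rol-6* did not pass. Of these, *rol-6* had a log2 fold change of -0.85 with an unadjusted p under 0.05 (limma), while *elt-3* had 0.17 and *lin-26* -0.17. In RNA from whole worms, fewer cells of a type and less RNA per cell cannot be told apart.

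Markers of other tissues were checked beside these results. Of 2 body wall muscle, 4 neuron and 2 germline markers, 0 passed with limma in either mutant against wild-type, although 1 neuron marker in *sma-3* had an unadjusted p under 0.05. For intestine, *elt-2*, *ges-1* and *vha-6* (3 of 3) fell in libraries labelled *sma-9*, with sums of 452 to 584 CPM in those libraries and 717 to 776 CPM in wild-type, and 0 passed in *sma-3* (637 to 667 CPM). Of 3 pharynx markers, *myo-2* fell in libraries labelled *sma-9*, where the sum was 253 to 379 CPM, against 484 to 658 CPM in wild-type. *myo-2* makes up most of this sum (means 293 CPM in labelled *sma-9* and 535 CPM in wild-type). *pha-4* (32.9 and 38.5 CPM) and *ceh-22* (4.54 and 5.75 CPM) overlapped and did not pass. The glial markers *ptr-10* and *fig-1*, of interest for *dyf-7*, did not pass, although both had an unadjusted p under 0.05 in *sma-3*, with log2 fold changes over wild-type of -0.66 for *ptr-10* and -0.26 for *fig-1*. The marker *ver-1* was at or near 0 (at most 0.17 CPM). The part of these tissues in the values of the cuticlin genes was not tested.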

How the data were processed

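The analysis used 3 biological replicates per genotype, as given by the labels and the methods. The p-values set the difference between genotypes against the spread between replicates, estimated over all 3 genotypes together. PolyA RNA was sequenced as paired ends. The authors mapped the reads to WS245 and counted reads per gene with STAR 2.5.1a, normalized the counts with edgeR, and deposited log2 values of CPM with a prior averaging 2 reads. The strand setting and the handling of reads that fit several genes are not given in the sources used here.

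The prior was removed, which gave whole reads (within 0.05 reads, for values up to 2000 reads) for 100% of values in each library. Intervals for 3 reads cover counting error only. Symbols and positions came from WBcel235 (46821 of 46875 identifiers matched). Genes that reached 1 CPM in 3 or more libraries were fitted as log2(CPM + 1) with limma 3.58.1 in R 4.3.3 (lmFit, contrasts.fit and eBayes with trend, 9 libraries, 3 genotype coefficients, no block), two-sided, with Benjamini-Hochberg adjustment over 13105 genes in each comparison. This scale understates changes of low genes, so the ratio of mean CPM is also given for each called member. Tables and plots used Python 3.11.15. The procedure was tested on simulated data drawn independently for each library. That test does not cover variation shared between libraries, which was seen here.

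Values in every library are given for called members, the *cut-* genes, *ram-5*, *dyf-7* and the 5 members highest per kilobase; others named were chosen after their values were seen. The members and lists were chosen with earlier results of these data known. *pqn-47*, an older name of *myrf-1*, was counted once, and *mir-228* was not matched. Deviations from the genotype means correlated at -0.63 to 0.40 between libraries with the same replicate number, so replicate numbers were not taken as pairs. The number in the library name is a different one. Wild-type replicate 2 and labelled *sma-9* replicate 1, both named with 7, correlated at 0.61. Wild-type replicate 3 (number 9) correlated at 0.58 with labelled *sma-9* replicate 2 (number 8) and at -0.59 with labelled *sma-9* replicate 1. No column was left without a sample (0). Alternatives were other pseudocounts, filters, scalings, models and thresholds, a replicate block, and each replicate left out in turn.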

Additional observations from a re-analysis of the deposited data

How the results depend on the processing

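The number of cuticlin genes called depended on the filter, the model and single libraries. None of 54 called values (cuticlin and list genes) reversed its sign (0). These values were picked as called in the same libraries, so a reversal was unlikely from the start, and no conclusion is drawn from its absence. For *sma-3* against wild-type (8 called), 4 were called with no filter, 4 with a mean of at least 5 CPM, 5 with the replicate block, 5 with the 2 genotypes alone in the fit and 3 at an adjusted p of at most 0.01. Leaving out single replicates gave 3 to 8, with 4 without *sma-3* replicate 2 and 3 without *sma-3* replicate 3. For labelled *sma-9* against wild-type (1 called), 0 were called with no filter, with a mean of at least 5 CPM (where *cut-6* was not tested), with the 2 genotypes alone and at 0.01, and 0 to 1 with single replicates left out. The replicate block and the library-number term kept 1. For *sma-3* against labelled *sma-9* (6 called), 3 were called with no filter, 3 with equal totals, 3 with the replicate block, 10 with the 2 genotypes alone and 1 at 0.01, and 1 to 9 with single replicates left out. Other pseudocounts, quantile normalization and limma voom on recovered reads gave 7 to 8, 1 and 6. Of 280 alternatives to the 15 called values of cuticlin genes, 198 kept the call. The cause of these shifts was not tested, beyond the fewer samples or stricter limit of some. In the genes under 1 CPM, depth limits what can be seen.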
